A study of Mus musculus with 4 samples.

Results

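The histone genes on this array were taken as all probes whose gene symbol starts with Hist1h, Hist2h, Hist3h, Hist4h, H1f, H2af or H3f, with no use of any measured value. The rule found 60 gene symbols among 15961, on 55 probes among 33012. Of these, 42 carried symbols of the clustered histone genes and 13 carried symbols of replacement histones. The clustered probes named 52 gene symbols, since 10 of them listed more than 1 symbol, and the replacement probes named 8 genes. All 60 symbols were matched in a RefSeq gene table of the mouse assembly GRCm38.p6.

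Expression was read from 1 array for each of 4 mouse melanoma lines, all of C57Bl6 background and all growing in culture when RNA was taken. B16, the parental line, is the B16F1 melanoma. To obtain B16-RI, B16F1 cells were injected into the back skin of mice and tumour cells growing in lymph nodes were taken into culture. B16-RI was then injected in the same way (round 2), and gave B16-RII from lymph node and B16-RIIL from lung metastases. The labels also write the last 2 lines as R2 and R2L. The passaged lines grew out of metastases with no cloning described, and each RNA was a pool from 2 passage numbers. With 1 array per line used here there was no replicate, so no difference below has a test or an error, and all differences from B16 share the single B16 array.

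Histones are the proteins around which DNA is wound: H2A, H2B, H3 and H4 form the nucleosome core, and the linker histone H1 binds the DNA between cores. Clustered histone genes lie in groups on a few chromosomes, are transcribed mainly in S phase, and produce mRNAs that mostly end in a stem-loop in place of a poly(A) tail. Replacement histones, such as H2A.Z and H3.3, are encoded by single genes outside these groups, have polyadenylated mRNAs, and are made throughout the cell cycle. Whether the labelling of the RNA depended on a poly(A) tail is not given in the sources used here. Clustered genes of 1 type are close to identical in sequence, and the probe sequences were not used here, so a probe may read other genes than those its symbol names.

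Many clustered H2A and H2B genes are arranged head to head, transcribed in opposite directions from a short shared interval. The intervals between the start sites of 4 such pairs are printed because both probes of each pair were detected on all 4 arrays, and because the signals of the H2A and H2B probes are compared below. They lie on chromosome 13 and are written on the plus strand of GRCm38.p6, credited to RefSeq. Capitals mark CCAAT, the sequence bound by NF-Y, on either strand (ATTGG on the other strand).
Hist1h2ak and Hist1h2bn, chr13:21753913-21754075: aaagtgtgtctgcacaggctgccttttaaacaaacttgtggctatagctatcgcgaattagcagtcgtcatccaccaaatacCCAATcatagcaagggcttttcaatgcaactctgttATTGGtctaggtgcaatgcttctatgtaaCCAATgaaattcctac
Hist1h2an and Hist1h2bp, chr13:21787249-21787487: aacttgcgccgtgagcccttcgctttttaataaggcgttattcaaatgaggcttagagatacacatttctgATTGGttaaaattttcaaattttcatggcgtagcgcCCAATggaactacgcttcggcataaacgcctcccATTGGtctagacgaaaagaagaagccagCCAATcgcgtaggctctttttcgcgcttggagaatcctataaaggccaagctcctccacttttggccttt
Hist1h2ad and Hist1h2bf, chr13:23574208-23574380: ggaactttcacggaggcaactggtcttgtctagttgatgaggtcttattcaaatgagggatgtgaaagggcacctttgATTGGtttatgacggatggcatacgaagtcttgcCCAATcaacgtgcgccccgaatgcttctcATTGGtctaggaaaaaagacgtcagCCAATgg
Hist1h2ae and Hist1h2bg, chr13:23571221-23571399: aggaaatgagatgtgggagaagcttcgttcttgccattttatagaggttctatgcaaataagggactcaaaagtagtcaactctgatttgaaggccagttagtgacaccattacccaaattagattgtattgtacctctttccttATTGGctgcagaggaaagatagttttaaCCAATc

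The H2A gene was on the plus strand in the Hist1h2ad pair and on the minus strand in the other three. The intervals were 163, 239, 173 and 179 bases long and held 3, 4, 4 and 2 CCAAT sequences, in the order printed. A CCAAT on either strand was present in all 14 promoters of clustered H2A genes and all 14 of clustered H2B genes in the RefSeq table, in windows from 250 bases before to 50 bases after the start. Over all 32851 promoters of that length, 37.4% held one. The octamer ATTTGCAT, known from H2B promoters, was found in 42.9% of the H2B windows, 35.7% of the H2A windows and 1.74% of all windows, and of the printed intervals the one between Hist1h2ae and Hist1h2bg held it. TATAAA was found in 10 of 14 H2A windows, 7 of 14 H2B windows and 13.6% of all windows, and in none of the 6 replacement windows. The windows of head-to-head neighbours overlap, so the H2A and H2B shares are not separate observations. These are matches of letters only.

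Signals are given below on the deposited normalized scale after centring. For each of the array's 2 probe sets, the median difference from B16 over probes detected on all 4 arrays was subtracted, so a typical probe does not differ from B16. B16 was left as deposited, so the ratio of printed signals is the fold difference. A probe was called detected on an array at a signal-to-noise ratio of at least 3, and measured where that ratio averaged at least 3 over the 4 arrays. Signals of different probes cannot be set against each other.

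Of the histone probes, 35 were measured, 26 clustered and 9 replacement. In all, 31 were detected on all 4 arrays, 8 on some and 16 on 0. Among clustered probes the detected share depended on type. Of the H2A probes 9 of 10 were measured and of the H2B probes 11 of 16, but of the H3 probes 3 of 7, of the H4 probes 2 of 3 and of the linker H1 probes 1 of 6. The members known from germ cells were mostly undetected: Hist1h1t and Hist1h2ba of the testis and H1foo of the oocyte were detected on 0 arrays, whereas Hist1h2aa, also a testis gene, had a mean signal-to-noise ratio of 55.9. The lines differed little in how many members were detected, with 37 in B16, 33 in B16-RI, 36 in B16-RII and 34 in B16-RIIL.

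**Figure D1:**
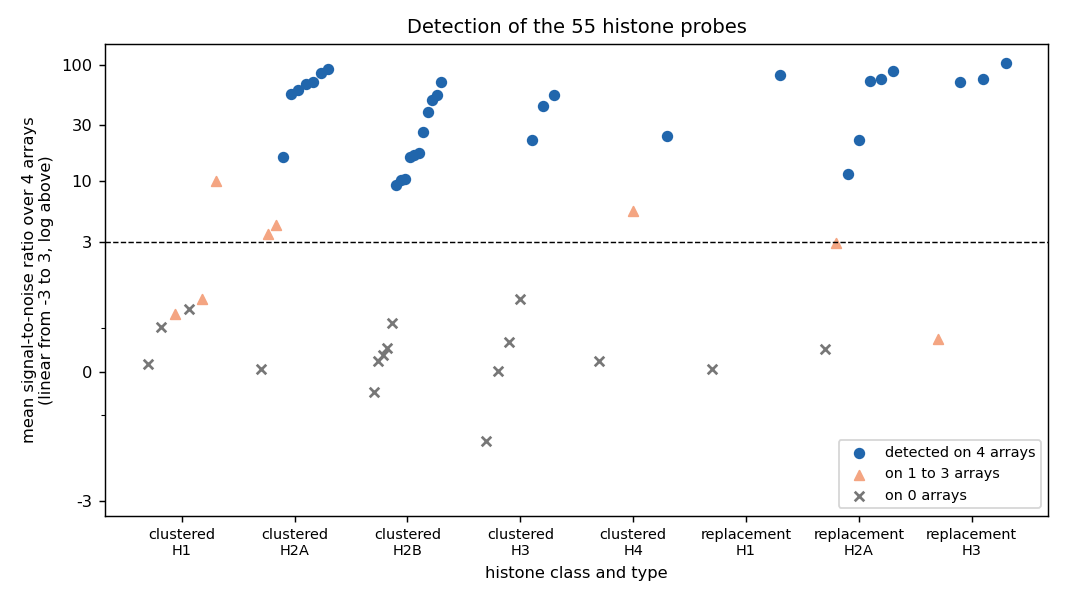
Mean signal-to-noise ratio over the 4 arrays (vertical axis, linear from -3 to 3 and logarithmic above) of each of the 55 histone probes, by class and type, with the dashed line at 3. Of the 42 clustered probes 22 were detected on all 4 arrays, and of the 13 replacement probes 9.

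Among the replacement histones, the measured probes for H2A.Z, H3.3 and H2A.X ranged by 0.14 to 0.36 (log2) from the lowest to the highest line, under the median range of 0.49 over all probes detected on all 4 arrays. H1f0 ranged by 0.78 and H2afy2 by 0.58. H2afz, which encodes H2A.Z, a variant found at promoters, had a signal of 1299 in B16, 1486 in B16-RI, 1371 in B16-RII and 1344 in B16-RIIL on its brightest probe. A second H2afz probe gave 542, 635, 616 and 667, and the remaining, dim one 5.65, 5.70, 4.69 and 4.46. The bright probes were above B16 in all 3 passaged lines, the dim one below it in B16-RII and B16-RIIL. Without centring the dim one was above B16 in B16-RII, at 6.28 against 5.65.

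H3f3a, 1 of the genes for H3.3, the H3 variant laid down outside S phase, was read by 3 measured probes. In the order B16, B16-RI, B16-RII and B16-RIIL their signals were 1436, 1489, 1397 and 1287, then 710, 848, 891 and 762, then 287, 293, 259 and 235. No line stood apart on all 3, and the highest line was B16-RI on 2 of them and B16-RII on the other. H2afx, encoding the H2A.X that is phosphorylated beside DNA breaks, was flat at 66.7, 73.4, 72.2 and 70.4.

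H1f0, the linker variant known to accumulate in cells that stop dividing, varied most among measured replacement genes. Its signal was 254 in B16, 163 in B16-RI, 203 in B16-RII and 279 in B16-RIIL. B16-RI was thus the lowest, at 0.641 of B16, and B16-RIIL the highest, at 1.10 times B16.

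The macroH2A genes were dim. H2afy2 gave 7.78, 9.19, 7.90 and 6.15 in the order above. H2afy, which encodes macroH2A1, known as a suppressor of melanoma progression, was detected in B16 at 1.76 and in B16-RII at 1.49 but not in B16-RI or B16-RIIL, where the signals were 0.534 and 0.436. An undetected array was set to its own signal or, where larger, the lowest detected signal of its probe set. By this H2afy was 3.30-fold lower in B16-RI and 4.04-fold lower in B16-RIIL than in B16. An undetected signal may lie anywhere under the detection limit of its spot, so such nominal folds, here and below, are not lower limits. The probe's signal-to-noise ratio reached only 5.06 on its best array, and its mean of 2.98 was just short of the limit for measured probes.

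Among the clustered genes, the H2A probes were on the whole above B16 in the passaged lines. The probe for Hist1h2ab and Hist1h2ad gave 110 in B16, 131 in B16-RI, 147 in B16-RII and 178 in B16-RIIL, 1.61 times B16 in the last. The probe for Hist1h2ae and Hist1h2af gave 60.9, 61.9, 70.9 and 88.5. In both, B16 was the lowest line and B16-RIIL the highest.

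Hist1h2an gave 36.4, 42.0, 57.2 and 57.1, and Hist1h2ak 32.3, 35.4, 41.0 and 45.1. B16 was again the lowest of the 4 lines on each probe. The same held for Hist1h2ao and for the probe shared by Hist2h2aa1, Hist2h2ac and Hist2h2ab, which stood at 1.67 and 1.45 times B16 in B16-RIIL. Hist1h2aa differed from these, with 43.5, 47.5, 46.2 and 33.3, and was below B16 in B16-RIIL on the centred scale. Without centring it was above B16 there, at 45.89 against 43.50.

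A pair of dim H2A probes were detected on only some arrays. Hist1h2ag gave 2.90 in B16, 2.34 in B16-RI and 0.531 in B16-RII, and was not detected in B16-RIIL at 0.251. There it was nominally 9.01-fold lower than in B16. Its signal-to-noise ratio was 5.68 in B16, 5.14 in B16-RI and 3.07 in B16-RII. Hist1h2ac was detected in B16 at 1.21 and in B16-RII at 2.07, but not in B16-RI at 0.562 or B16-RIIL at 0.865.

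The clustered H2B probes went the other way. Hist2h2bb gave 14.6 in B16, 7.30 in B16-RI, 9.76 in B16-RII and 8.39 in B16-RIIL, and stood at 0.498 of B16 in B16-RI. It was the only histone probe detected on all 4 arrays that reached a 2-fold difference from B16 on the centred scale, and under the other 4 scalings it did not, at 0.566 to 0.653 of B16. Other probes detected on all 4 arrays reached 2-fold under some of those scalings: Hist1h2an, Hist1h2ao, Hist1h3e and the probe for Hist1h2ab and Hist1h2ad above B16 in a round 2 line, without centring or after median scaling, and Hist1h2bc below B16 in B16-RIIL, after quantile normalization or scaling to the 75th percentile. Of the other H2B probes, outside the rule for named genes, Hist1h2bc gave 21.7, 14.4, 15.7 and 12.4 and Hist1h2bm 13.6, 8.99, 10.4 and 7.86. B16 was the highest line on all 3 probes on the centred scale. Without centring Hist1h2bm was higher in B16-RII, at 13.83, than in B16, at 13.55. Hist2h2be, an H2B variant known from olfactory neurons and the brightest H2B probe in signal-to-noise ratio, gave 34.1, 43.1, 30.6 and 32.1, so B16-RI stood highest. Of the 11 measured H2B probes, 9 were below B16 in B16-RI, 9 in B16-RII and 11 in B16-RIIL, and of the 9 measured H2A probes 7, 8 and 6 were above it. Of all measured probes 51.4%, 51.1% and 50.1% were below B16 in these lines. The counts depend on the scaling, as does that background. Without centring the H2B probes below B16 numbered 7, 4 and 8, against 33.0%, 19.5% and 33.9% of all measured probes, and after median scaling 7, 3 and 8, against 37.4%, 22.5% and 32.9%. After quantile normalization they were 10, 8 and 9, against 51.1%, 50.1% and 49.6%, and after scaling to the 75th percentile 8, 7 and 9, against 44.9%, 46.5% and 48.9%. The H2A probes above B16 in B16-RI were 4 after quantile normalization, against 48.9% of all measured probes, and 5 after scaling to the 75th percentile, against 55.1%.

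The 3 measured clustered H3 probes were all below B16 in B16-RIIL, and 2 of 3 were without centring or after median scaling. The probe for Hist1h3b and Hist1h3d gave 37.5, 39.2, 31.4 and 25.8, that for Hist2h3c1 and Hist2h3b 41.3, 43.9, 40.4 and 28.2, and Hist1h3e 14.0, 9.43, 19.4 and 10.7. In B16-RI and B16-RII they had no common direction on the centred scale. Without centring all 3 were above B16 in B16-RII, as were 80.2% of all measured probes.

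For H4, Hist2h4 was flat, between 10.9 in B16-RII and 11.6 in B16-RIIL. The probe for Hist1h4d and Hist1h4c was detected at 2.27 in B16, 2.57 in B16-RII and 2.75 in B16-RIIL. It was not detected in B16-RI at 0.419, nominally 5.41-fold lower than B16. Thus the probe was missing in 1 line alone, B16-RI.

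Of the linker genes, Hist1h1e (H1.4) was not detected in B16 at 1.82 and was detected at 2.70, 4.33 and 3.23 in B16-RI, B16-RII and B16-RIIL. In B16-RII its signal was nominally 2.38-fold above the undetected one of B16, and under the other 4 scalings it was past 2-fold in B16-RIIL too. Hist1h1b (H1.5) and 1 of the probes for Hist1h1d (H1.3) were detected in B16 alone, with signal-to-noise ratios of 3.98 and 3.41. Hist1h1b was nominally 2.66-fold lower in B16-RI and 3.41-fold lower in B16-RIIL, and Hist1h1d nominally 2.44-fold lower in B16-RI. The Hist1h1d signals were 5.92, 2.43, 4.16 and 5.91 in B16, B16-RI, B16-RII and B16-RIIL, so that the B16-RIIL signal was level with B16 although it was not called detected. A limit on the fold difference can thus not be given for this probe.

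**Figure D2:**
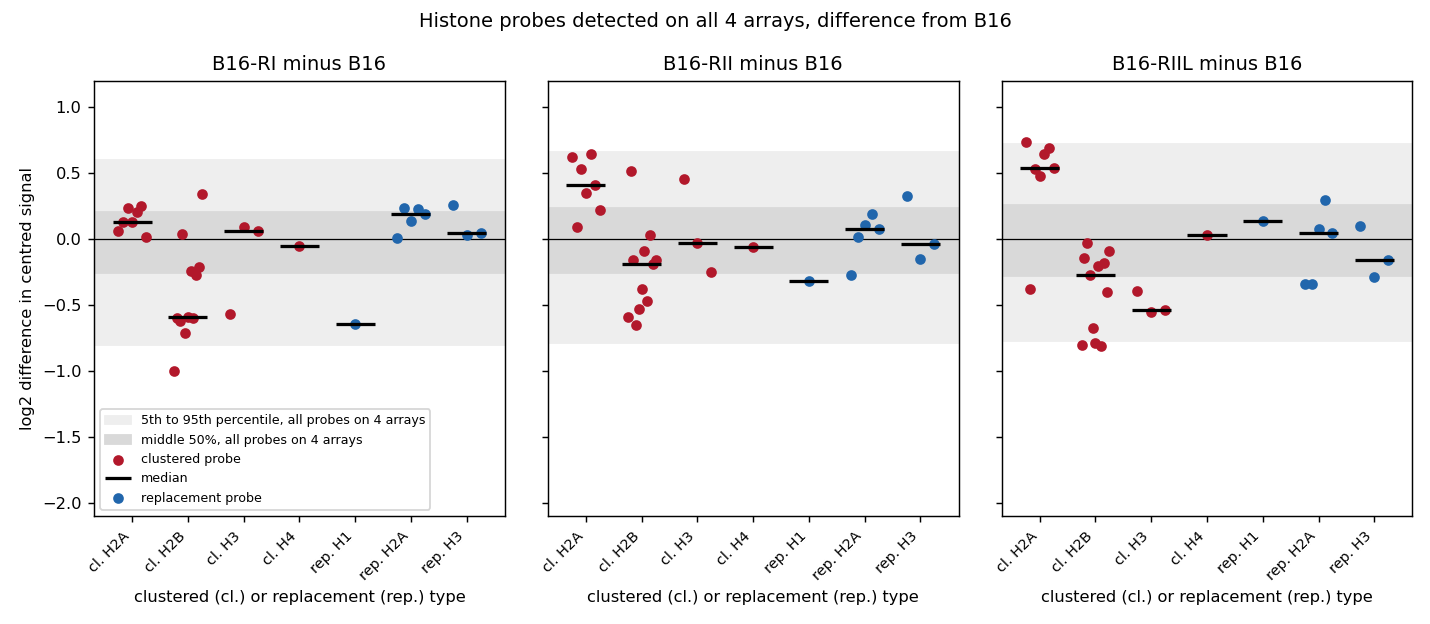
Log2 difference from B16 (vertical axis) of each histone probe detected on all 4 arrays, by clustered (red) or replacement (blue) type, with 1 panel per passaged line; black bars are medians and grey bands show the middle 50% and the 5th to 95th percentile of all 11604 probes detected on 4 arrays. Clustered H2A probes lie mostly above 0 and clustered H2B probes mostly below it. Of 31 histone probes, those outside the wider band are Hist2h2bb in B16-RI, and Hist1h2bc, Hist1h2bm and Hist2h2bb below and Hist1h2ao above in B16-RIIL. By definition 5% of the 11604 probes lie below that band and 5% above it.

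Few histone probes reached a 2-fold difference with detection on the brighter array. In B16-RI, 0 members passed above B16, against 3.76% of all probes, and 6 members (10.9%) passed below, against 5.70%. The 6 were H2afy, Hist1h1b, Hist1h1d, Hist1h2ac, the probe for Hist1h4d and Hist1h4c, and Hist2h2bb. All but Hist2h2bb were undetected in B16-RI, and the members had fewer detected probes there than in any other line, as did the whole array, with 42.0% of all probes detected in B16-RI against 43.5% in B16, the next lowest.

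In B16-RII, 1 member (1.82%), Hist1h1e, was above B16, against 3.37% of all probes, and 1, Hist1h2ag, was below, against 5.62%. In B16-RIIL, 0 members were above, against 4.26%, and 3 (5.45%), H2afy, Hist1h1b and Hist1h2ag, were below, against 5.05%. On the centred scale both shares in B16-RII and the share above B16 in B16-RIIL were under those of all probes, and the share below B16 in B16-RIIL was near that background. Without centring and after median scaling, 4 clustered probes passed above B16 in B16-RII. In B16-RIIL some passed above it under each of the other 4 scalings. The shares of all probes at those scalings were not counted. The share below B16 in B16-RI was 10.9% against 5.70%, and of its 6 probes 5 rested on signals near the detection limit, while the other, Hist2h2bb, did not reach 2-fold under any of the other 4 scalings.

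Clustered and replacement histones were set side by side by the median log2 difference from B16 over measured probes. In B16-RI the median was -0.13 over 26 clustered probes and 0.14 over 9 replacement probes, a gap of -0.27. In B16-RII the medians were 0.00 and 0.02, with a gap of -0.02. In B16-RIIL they were -0.19 and 0.05, with a gap of -0.24. The median of all 13941 measured probes lay between -0.01 and 0.00, and the middle 90% of those probes ran from -1.17 to 0.83, from -1.04 to 0.90 and from -1.01 to 0.98 in the 3 lines.

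The gap did not hold within both probe sets. Among probes of the second set it was 0.01 in B16-RI, 0.45 in B16-RII and 0.02 in B16-RIIL, on 13 clustered and only 3 replacement probes. In the first set, with 13 and 6 probes, it was -0.45 in B16-RIIL.

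Clustered probes had a wider range between lines than replacement probes, a difference that was not tested. Over probes detected on all 4 arrays, the range from the lowest to the highest line had a median of 0.63 (log2, 0.08 to 1.12) in 22 clustered probes, 0.32 (0.14 to 0.78) in 9 replacement probes and 0.49 in all 11604. The mean signal-to-noise ratio, which had a median of 41.8 in the clustered and 74.4 in the replacement probes, moved with this. Among probes with a mean ratio of at least 50 the medians were 0.53 over 9 clustered, 0.30 over 7 replacement and 0.38 over all 3908 probes.

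Within the clustered class, H2A and H2B differed in direction. This split was chosen after the values had been seen and has no test. The median difference from B16 was 0.13 for 9 H2A and -0.59 for 11 H2B probes in B16-RI, 0.41 and -0.19 in B16-RII, and 0.53 and -0.27 in B16-RIIL. The gap between them was 0.72, 0.60 and 0.80 on the log2 scale. Of the 7 H2A probes detected on all 4 arrays, 6 exceeded every H2B probe in B16-RIIL, 3 did in B16-RII and 0 in B16-RI. The highest H2B probe in B16-RIIL stood at -0.03, and the median of all 11604 probes detected on 4 arrays at 0.00. A typical probe of the array thus also exceeded every H2B probe there. In B16-RII the highest H2B probe stood at 0.52, under the 95th percentile of 0.66 of all those probes. Under the other 4 scalings the count in B16-RIIL was 6, or 3 after quantile normalization, that in B16-RII was 3 to 4 and that in B16-RI was 3.

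The size of this gap depended on the processing most in B16-RI. Under the other 4 scalings the B16-RI gap was 0.37 to 0.42, and the H2A median there was below B16, at -0.04, after quantile normalization. The H2B median in B16-RII was above B16 without centring, at 0.22, and after median scaling, at 0.18, but the median of all probes was then 0.40 and 0.38, so H2B stayed lower than the array as a whole. Within the first probe set the gap was 0.81, 0.70 and 1.19, and within the second 0.32, 0.59 and 0.69, in the order B16-RI, B16-RII and B16-RIIL.

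Brightness also moved with type. The median of the mean signal-to-noise ratio was 68.7 for the 7 H2A and 17.3 for the 11 H2B probes detected on all 4 arrays, and its part in the gap was not tested beyond the following. Among probes with a mean ratio of at least 50, 6 for H2A and 2 for H2B, the gap was 0.11 in B16-RI, 0.55 in B16-RII and 0.78 in B16-RIIL. Under the other 4 scalings it was 0.08 to 0.12, 0.44 to 0.55 and 0.49 to 0.55. It rests on few probes, and within the second probe set, which holds 1 of the 2 H2B probes, it was -0.21 in B16-RI.

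**Figure D3:**
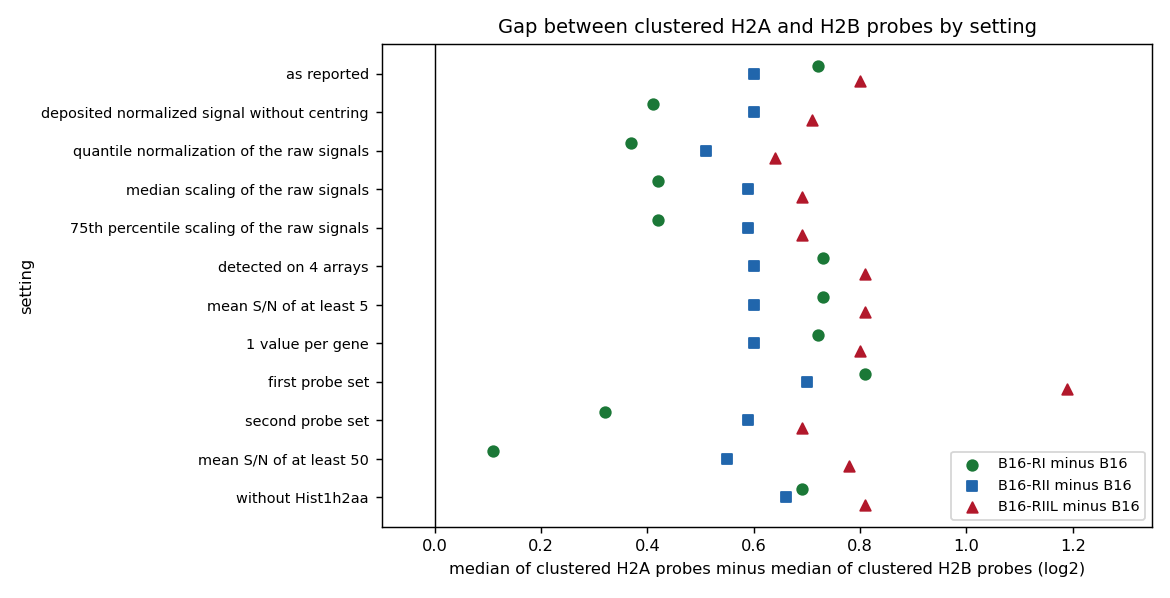
Median log2 difference from B16 of clustered H2A probes minus that of clustered H2B probes (horizontal axis) under each processing setting (vertical axis), for B16-RI (circles), B16-RII (squares) and B16-RIIL (triangles). All values plotted are above 0, with a range of 0.11 to 0.81 in B16-RI, 0.51 to 0.70 in B16-RII and 0.64 to 1.19 in B16-RIIL.

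Values for the head-to-head neighbours whose shared intervals are printed above are given pair by pair. They come from the same probes as the medians and are no further support for them. For Hist1h2ak against the probe of Hist1h2bn and Hist1h2bk, the H2A difference from B16 was 0.13, 0.35 and 0.48 in B16-RI, B16-RII and B16-RIIL, and the H2B difference -0.71, -0.53 and -0.67. For Hist1h2an against Hist1h2bp the values were 0.21, 0.65 and 0.65 against -0.62, -0.16 and -0.03. In both pairs the H2A probe stood above its neighbour in each of the 3 lines.

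For the probe of Hist1h2ab and Hist1h2ad against Hist1h2bf they were 0.25, 0.41 and 0.69 against -0.21, -0.19 and -0.40. For the probe of Hist1h2ae and Hist1h2af against Hist1h2bg they were 0.02, 0.22 and 0.54 against -0.60, 0.52 and -0.14, so B16-RII went the other way there. The H2A minus H2B difference of the 4 pairs was 0.46 to 0.84 in B16-RI, -0.30 to 0.88 in B16-RII and 0.68 to 1.15 in B16-RIIL. A pair with a dim H2A probe, Hist1h2ag against Hist1h2bj, went the opposite way, at -0.35 in B16-RI and -1.80 in B16-RII. In B16-RIIL, where Hist1h2ag was undetected, no exact difference can be given.

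**Figure D4:**
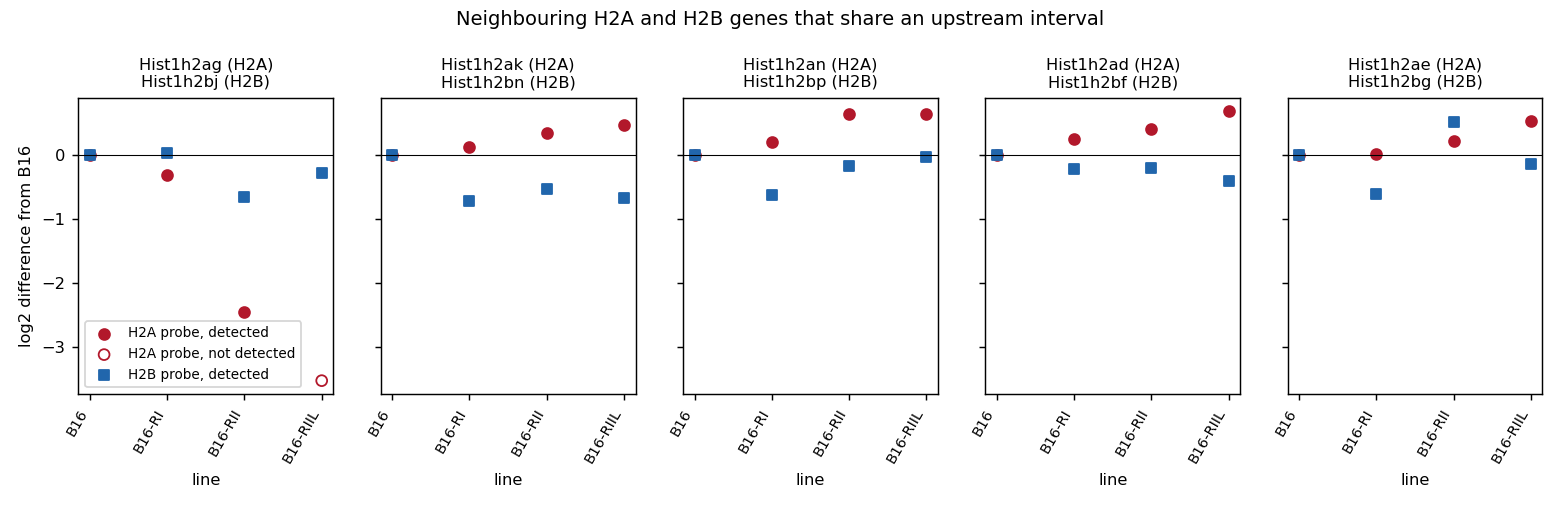
Log2 difference from B16 (vertical axis) of the H2A probe (red circles) and the H2B probe (blue squares) in 5 head-to-head pairs, by line (horizontal axis); open symbols are below detection. In the pairs of Hist1h2ak, Hist1h2an and Hist1h2ad the H2A probe lies above the H2B probe in all 3 passaged lines, and in the pair of Hist1h2ag below it.

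Between the round 2 lines, B16-RIIL minus B16-RII, which shares no B16 array, clustered probes had a median of -0.17 and replacement probes of -0.08, against 0.01 over all probes. Clustered H3 stood lowest, at -0.52 over 3 probes, all 3 lower in B16-RIIL, and it was the lowest of the clustered types with 3 or more measured probes under each of the 5 scalings. H2B was at -0.21 and H2A at 0.00, a gap of 0.21 that became -0.15 without centring. Counting 2-fold differences, 1 member, the dimmest H3f3a probe, was above B16-RII (not so without centring), against 4.57% of all probes, and 3, H2afy, Hist1h2ac and Hist1h2ag, were below, against 3.24%.

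Genes that supply histones were read from lists chosen by function. Of 20 genes for transcription and 3′ processing of clustered histone mRNA, 18 had a probe and all 18 were measured, with a median difference from B16 of 0.16 in B16-RI, 0.14 in B16-RII and 0.09 in B16-RIIL. The only one past 2-fold against B16 on the centred scale was Upf1, the helicase of nonsense-mediated decay that also takes part in the decay of histone mRNA, at 20.7 in B16, 33.8 in B16-RI, 41.8 in B16-RII and 46.6 in B16-RIIL. It was 2.02 times B16 in B16-RII and 2.25 times in B16-RIIL, and B16 was the lowest line. Under the other 4 scalings Pou2f1, which encodes the octamer-binding factor Oct-1, also passed 2-fold above B16 in B16-RIIL. Slbp, the stem-loop binding protein, named for its role and not by the rule, gave 4.18, 6.13, 4.0 and 2.96, with B16-RI highest.

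Of 22 histone chaperone and loading genes, 18 had a probe and 16 were measured, with medians of 0.14, 0.18 and 0.16. The 1 gene past 2-fold on the centred scale was Ep400, a remodeller that places H2A.Z, detected only in B16-RIIL with a signal-to-noise ratio of 3.03, and short of 2-fold after scaling to the 75th percentile. Hat1, which acetylates newly made H4 and was named after its values were seen, lay at the 2-fold limit without passing it, and passed it in B16-RIIL under the other 4 scalings, at 44.2 in B16, 44.9 in B16-RI, 39.7 in B16-RII and 22.1 in B16-RIIL, with detection on all 4 arrays. Relative to the all-probe median, the chaperone list in B16-RIIL turned to between -0.10 and -0.03 under the 4 other scalings.

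Of 34 S phase genes, 30 had a probe and 27 were measured. Their median was 0.22 above B16 in B16-RI, with 23 of 27 higher, and 0.34 in B16-RII, with 24 of 27 higher, but -0.01 in B16-RIIL, with 13 of 27 higher. Of all measured probes 48.6%, 48.9% and 49.9% were higher. Under the other 4 scalings the number of S phase genes above B16 was 17 to 25, 20 to 25 and 13 to 18, against 48.9% to 66.8%, 49.8% to 80.2% and 50.3% to 67.1% of all measured probes. Under the other 4 scalings the median stood above that of all probes by 0.11 to 0.17 in B16-RI and 0.14 to 0.36 in B16-RII. Cdk2, a kinase of S phase entry, was past 2-fold below B16 in all 3 lines, at 3.97 in B16, 0.477 in B16-RI, 1.73 in B16-RII and 1.24 in B16-RIIL, with detection in B16 and B16-RII only, and the B16-RII difference fell short of 2-fold without centring and after median scaling. Tyms, thymidylate synthase, was nominally 2.08-fold above B16 in B16-RI, and Pola1, of DNA polymerase alpha, nominally 2.49-fold above it in B16-RIIL. Both were undetected in B16 and near the detection limit, the former short of 2-fold after scaling to the 75th percentile. The clustered histones, at -0.13, 0.00 and -0.19, were lower than the S phase median in each line, as they were under each of the 5 scalings. This did not hold for every type. The clustered H2A median was above the S phase median in B16-RII, at 0.41 against 0.34, and in B16-RIIL, at 0.53 against -0.01, under each of the 5 scalings.

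**Figure D5:**
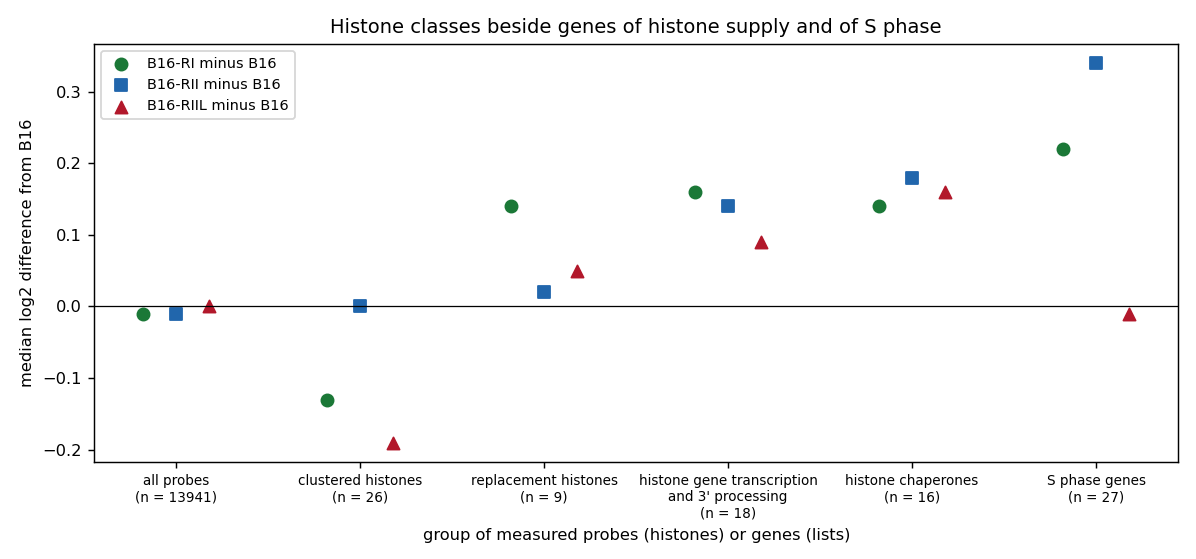
Median log2 difference from B16 (vertical axis) of measured probes of each histone class and of measured genes of each list, in B16-RI (circles), B16-RII (squares) and B16-RIIL (triangles). The S phase genes stand at 0.22, 0.34 and -0.01 and the clustered histones at -0.13, 0.00 and -0.19.

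Markers of the labelled cell type, melanoma, were present on all arrays. Of 10 melanocyte markers 8 had a probe, and all 8 were detected on all 4 arrays. Their summed signal was 6832 to 7508, and this and the sums that follow compare arrays within a list, not lists with each other. On the centred scale 8 of the 8 were below B16 in B16-RI and in B16-RIIL and 6 in B16-RII, with medians of -0.16, -0.08 and -0.15 (log2). Of all measured probes 51.4%, 50.1% and 51.1% were below. Without centring 5, 5 and 1 markers were, against 33.0%, 33.9% and 19.5% of all measured probes. After quantile normalization 8, 5 and 5 were, against 51.1%, 49.6% and 50.1%. Oca2, a melanosome transporter, was past 2-fold below B16 in B16-RI and B16-RIIL, at 15.2, 3.99, 8.92 and 6.18 in the 4 lines, the latter call being lost without centring and after median scaling. Of 5 macrophage and 5 endothelial markers 0 were measured, of 6 fibroblast markers 2 were, and the summed signals were 3.04 to 3.49, 2.03 to 3.44 and 9.83 to 17.3. Of the fibroblast markers, 3 of 6 were detected on 0 arrays. Of 5 lymphocyte markers 2 were measured and 2 were detected on 0 arrays, with a summed signal of 62.2 to 67.1, most of it from 1 probe. Of 4 germ cell markers 3 had a probe and 1, Sycp3, was measured. Any part of other cells in the histone differences was not tested beyond these values. The arrays as a whole differed in brightness, with median raw signals of 435 to 619, and detected 13872 to 14855 probes.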

How the data were processed

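Digoxigenin-labelled cRNA of 4 melanoma lines had been hybridized to Applied Biosystems Mouse Genome Survey arrays V2.0 and read by chemiluminescence, 1 array per line matching the labels. The deposited table gave, per file headers, a raw signal intensity, a normalized intensity, a signal-to-noise score and a flag score for each probe, as the authors' analyzer wrote them. The normalized intensity that the authors deposited equalled the raw one divided by 1 of 2 constants per array, for probe sets of 16524 and 16488 probes, although quantile normalization is stated. The equality held within a relative difference of 0.053. Of the columns, 16 were used. Left out were 20 columns of second arrays, for which the labels describe no sample, and 20 columns of the authors' ratios and log ratios between lines.

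Log2 normalized intensities were centred per probe set on the median difference from B16 of the 11604 probes detected on all 4 arrays. For B16-RI, B16-RII and B16-RIIL, the differences subtracted from the first probe set were 0.39, 0.41 and 0.46 (log2), and those from the other set 0.07, 0.42 and -0.01. Detection required a signal-to-noise ratio of 3 or more with no flag over 5000, and probes were measured where the ratio averaged at least 3. A 2-fold count required detection on the brighter array. For nominal folds, the undetected side took its measured signal or, where larger, the minimum over detected probes of that array and probe set. These folds are not lower limits. List genes were read by the probe with the highest mean signal. The number of arrays limits the precision, and no test was made. Python 3.11.15, numpy 2.4.6, pandas 2.3.3 and matplotlib 3.10.9 were used, and the centring and the counts were checked on simulated data.

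Genes named by rule were all replacement genes with a measured probe, clustered genes past 2-fold against B16 or among the 5 with the highest mean signal-to-noise ratio, and list genes past 2-fold. Other clustered genes, and H2afy, were named after their values had been seen. The members and lists were chosen with earlier results of these data known. Alternatives covered scaling, filters, the size limit, 1 value per gene, the members and each probe set.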

Additional observations from a re-analysis of the deposited data

How the results depend on the processing

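With 1 array per line used here no array was left out, and a median counted as moved by over 0.2 (log2) and a count by over 1.5 times. No paired analysis was possible because 1 array per line was used here and the labels carry no shared replicate numbers. Of 96 alternatives for the medians of the classes 75 stayed within these limits, of 138 for the counts 103, and of 33 for the gap between H2A and H2B, all chosen after seeing the data, 26. The cause of the shifts was not tested.

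Without centring, the clustered median was 0.12 in B16-RI, 0.41 in B16-RII and 0.06 in B16-RIIL, and the replacement median 0.53 in B16-RI and 0.43 in B16-RII, while the median of all probes was 0.19, 0.40 and 0.22. After median scaling the clustered medians were 0.07, 0.46 and 0.11, and the replacement median 0.46 in B16-RI and 0.58 in B16-RII. After scaling to the 75th percentile the replacement median was 0.38 in B16-RI and 0.24 in B16-RII. With no filter the gap between clustered and replacement probes was -0.03 in B16-RI and 0.00 in B16-RIIL, and the replacement median -0.16 in B16-RIIL. In the first probe set the gap was -0.45 in B16-RIIL. In the second it was 0.01, 0.45 and 0.02 in the 3 lines, with a replacement median of -0.27 in B16-RII and -0.16 in B16-RIIL.

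The gap between H2A and H2B in B16-RI was 0.41 without centring, 0.37 after quantile normalization, 0.42 after median or 75th percentile scaling, 0.32 in the second probe set and 0.11 at a mean signal-to-noise ratio of at least 50. In B16-RIIL it was 1.19 in the first probe set.

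Clustered probes below B16 numbered 5 in B16-RI, 1 in B16-RII and 2 in B16-RIIL. The counts that follow were made for histone probes only. With no share of all probes at the same setting beside them, they are no result about histones. Without centring, 80.2% of all measured probes were above B16 in B16-RII. At 1.5-fold they were 10, 4 and 6, and among probes detected on all 4 arrays 1, 0 and 0. At 4-fold there was 1 in each of the 3 lines, and with a ratio of at least 5 on the brighter array 2, 1 and 1. Without H1, germ cell and Hist3 members there were 3, 1 and 1, and in the first probe set 1, 0 and 0. Clustered probes above B16 in B16-RII, 1 as reported, were 4 without centring, 4 after median scaling, 4 at 1.5-fold, and 0 at 4-fold, among probes detected on all 4 arrays, without H1, germ cell and Hist3 members, and in the second set. In B16-RIIL, 0 as reported, they were 3 without centring, 3 after median scaling, 1 after quantile normalization, 1 after 75th percentile scaling and 4 at 1.5-fold. Replacement probes below B16, 1 in B16-RI and 1 in B16-RIIL, were 0 in both with a ratio of at least 5, among probes detected on all 4 arrays and in the second set, and in B16-RI 2 at 1.5-fold and 0 at 4-fold.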
